A study of Mus musculus with 6 samples.

Results

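Glycolysis genes and other targets of the hypoxia-inducible factor HIF-1 were followed in mammary tumors that lacked or expressed junctional adhesion molecule A (JAM-A). The members were 34 genes listed by their function, 20 of glycolysis and 14 other HIF-1 targets. Each was read from the probe set with exactly 1 gene symbol that had the highest mean over the arrays. In this way 32 of the 34 were found among 19938 genes, 18 of glycolysis and all 14 others. Gpi1 and Eno1 were paired with no probe set of 1 symbol and were not analysed here. The 3 JAM-A-/- tumors (5333, 5346 and 5347) came from MMTV-PyMT mice that also lack JAM-A, and the 3 JAM-A+/+ tumors (5369, 5370 and 5393) from MMTV-PyMT mice with intact JAM-A. The tissue label of tumor 5347 leaves out the lack of JAM-A that its title and genotype give. In all 6 the MMTV promoter, which is active in mammary epithelium, thus drives the middle T oncogene of polyoma virus, and all were taken at an early stage, with no age given for single tumors. RNA from each tumor was hybridized to 1 Affymetrix array, and the values are RMA expression values on the log2 scale, in which a difference of 1 is a doubling. Whether tumors of 1 genotype stem from separate mice is not stated in the labels, and the p-values thus measure only the spread between these tumors, which may be technical.

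Glycolysis converts glucose to pyruvate through a chain of cytosolic enzymes, and lactate dehydrogenase and lactate export let it run without respiration. HIF-1 is a transcription factor whose alpha subunit, Hif1a, is hydroxylated in the presence of oxygen by the prolyl hydroxylases of the Egln family and then degraded. When oxygen is low the subunit persists and genes for glucose uptake, glycolysis, pH control, mitophagy, vessel growth and collagen hydroxylation are transcribed. Glycolysis genes are also driven by growth signals such as PI3K and Myc, and by the muscle programme, so a level of these mRNAs is not a measure of oxygen. In a tumor extract, fewer cells of a type and less RNA per cell cannot be told apart.

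The sequence to which HIF-1 binds holds the letters ACGTG or GCGTG, and the 250 bases before the start site nearest the 5′ end of each gene were searched for both, on both strands, with matches that overlap counted once. RefSeq promoters of build GRCm38.p6 matched 29 of the 32 members, all but Bnip3l, Slc2a3 and Ndrg1. At least 1 core was present in 23 of the 29 (79.3%), against 7251 of 15614 promoters of measured genes (46.4%), and at least 2 were present in 15 members (51.7%), against 18.3% of those promoters. The members were listed as glycolysis genes or HIF-1 targets, so their higher share may follow from that choice and is no test of the list. ACGTG also lies within the E-box CACGTG that other factors bind, so a match is a description of the letters and not a binding site. Of the 10 members that differed between genotypes by the criteria below, 8 held a core, and so did 15 of the 19 others with a promoter sequence. The promoters of 4 of these 10 are shown because they include the member with the largest difference, Ddit4, 1 glycolytic enzyme, Pgam1, and the 2 carbonic anhydrases Car9 and Car12, of which only Car9 held a core. Cores are in capitals, read as CACGT or CACGC where they lie on the opposite strand, and each sequence ends 1 base before the start site. The window of Ddit4 is chr10:59951771-59952020 on the minus strand, that of Pgam1 chr19:41911621-41911870 on the plus strand, that of Car9 chr4:43506776-43507025 on the plus strand and that of Car12 chr9:66713436-66713685 on the plus strand.
Ddit4: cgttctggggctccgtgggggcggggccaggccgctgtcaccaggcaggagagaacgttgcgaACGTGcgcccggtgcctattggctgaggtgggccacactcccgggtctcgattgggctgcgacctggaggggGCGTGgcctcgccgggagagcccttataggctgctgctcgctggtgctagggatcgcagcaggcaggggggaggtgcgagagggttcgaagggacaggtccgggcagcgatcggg
Pgam1: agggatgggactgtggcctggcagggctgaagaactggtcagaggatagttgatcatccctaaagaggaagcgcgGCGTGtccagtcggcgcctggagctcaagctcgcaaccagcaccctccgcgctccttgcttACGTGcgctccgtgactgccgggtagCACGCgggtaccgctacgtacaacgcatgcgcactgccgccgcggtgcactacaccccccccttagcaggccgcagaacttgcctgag
Car9: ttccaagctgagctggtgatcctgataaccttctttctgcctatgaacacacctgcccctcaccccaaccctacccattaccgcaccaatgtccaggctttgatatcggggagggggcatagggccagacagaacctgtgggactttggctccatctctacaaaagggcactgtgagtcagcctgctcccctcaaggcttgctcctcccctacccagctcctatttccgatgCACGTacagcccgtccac
Car12: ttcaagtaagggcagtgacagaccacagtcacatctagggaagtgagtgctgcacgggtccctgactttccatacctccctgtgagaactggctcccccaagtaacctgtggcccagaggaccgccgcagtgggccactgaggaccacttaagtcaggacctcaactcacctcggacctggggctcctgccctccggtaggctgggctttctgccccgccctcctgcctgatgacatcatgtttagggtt

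F11r, the gene of JAM-A, stood at 5.91, 5.55 and 6.53 on the log2 scale in JAM-A-/- tumors, against 10.1, 10.23 and 10.47 in JAM-A+/+ tumors, the direction that the labels give. Of 9 genes of mammary epithelium, Krt8, Krt18, Krt19, Epcam, Cdh1 and Elf5 lay above 10.4 in every tumor. Krt5 (8.73 to 10.17), Krt14 (9.01 to 10.01) and Esr1 (7.01 to 7.56) lay lower. Medians of the 6 arrays lay between 6.23 and 6.34 over all probe sets. The genotypes were compared over all probe sets with limma, and a gene is called higher or lower where the fold change was at least 1.3 and the unadjusted p was under 0.05. By this rule 4.73% of all genes were called higher in JAM-A-/- tumors and 0.592% lower, and the median difference over all genes was 0.09. F11r alone passed the Benjamini-Hochberg adjustment (adjusted p = 0.00667 from limma), which is 0.00281% of all probe sets, and every member had an adjusted p of 0.198 or more from limma, so each call below stands at an unadjusted p.

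Among the glycolysis genes 5 of 18 measured (27.8%) were called higher in JAM-A-/- tumors and none lower. Of the other HIF-1 targets 5 of 14 (35.7%) were called higher and none lower. The median log2 difference was 0.38 for the glycolysis genes and 0.36 for the others. In 8 of the 32 members (25.0%) all JAM-A-/- tumors lay above all JAM-A+/+ tumors, as they did for 12.4% of all genes. In none did all lie below, as they did for 2.55% of all genes. Positive differences were found for 30 of the 32, the exceptions being Slc2a3 at 0.00 and Pdk1 at -0.02, and for 71.0% of all genes. Quantile normalization over the probe sets that the annotation lists brought the median of all genes to 0.00. With it 29 of the 32 still lay above 0, against 50.5% of all genes, and 7 were called higher, against 1.8%. With quantile normalization of all probe sets 5 members were called higher, against 2.86% of all genes, and with each probe set's own spread 4 were, against 2.46%. The other HIF-1 targets had 2 calls in each of these 3 settings. The calls rest on single tumors to a large extent. Without JAM-A-/- tumor 5346, 3 glycolysis genes and 3 others were called, without JAM-A-/- tumor 5333 the numbers were 10 and 8, and without JAM-A+/+ tumor 5370 3 and 3. Without JAM-A+/+ tumor 5369 3 glycolysis genes were called, and without JAM-A+/+ tumor 5393 3 of the others. Calls among all genes moved as well. The shares of all genes called higher were 4.05% without tumor 5346, 10.1% without 5333 and 4.76% without 5370. They were 2.52% without tumor 5369 and 6.52% without 5393. Pfkm, Aldoc, Pgam1, Car9, Car12 and Ddit4 kept their calls whichever tumor was left out. Pfkl, Aldoa, Pgk1, Ldha, Slc2a1, Hif1a, Egln1 and Bnip3l were called only without tumor 5333 among these 6 settings, and Slc16a3, Adm and P4ha2 only without tumor 5347.

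**Figure D1:**
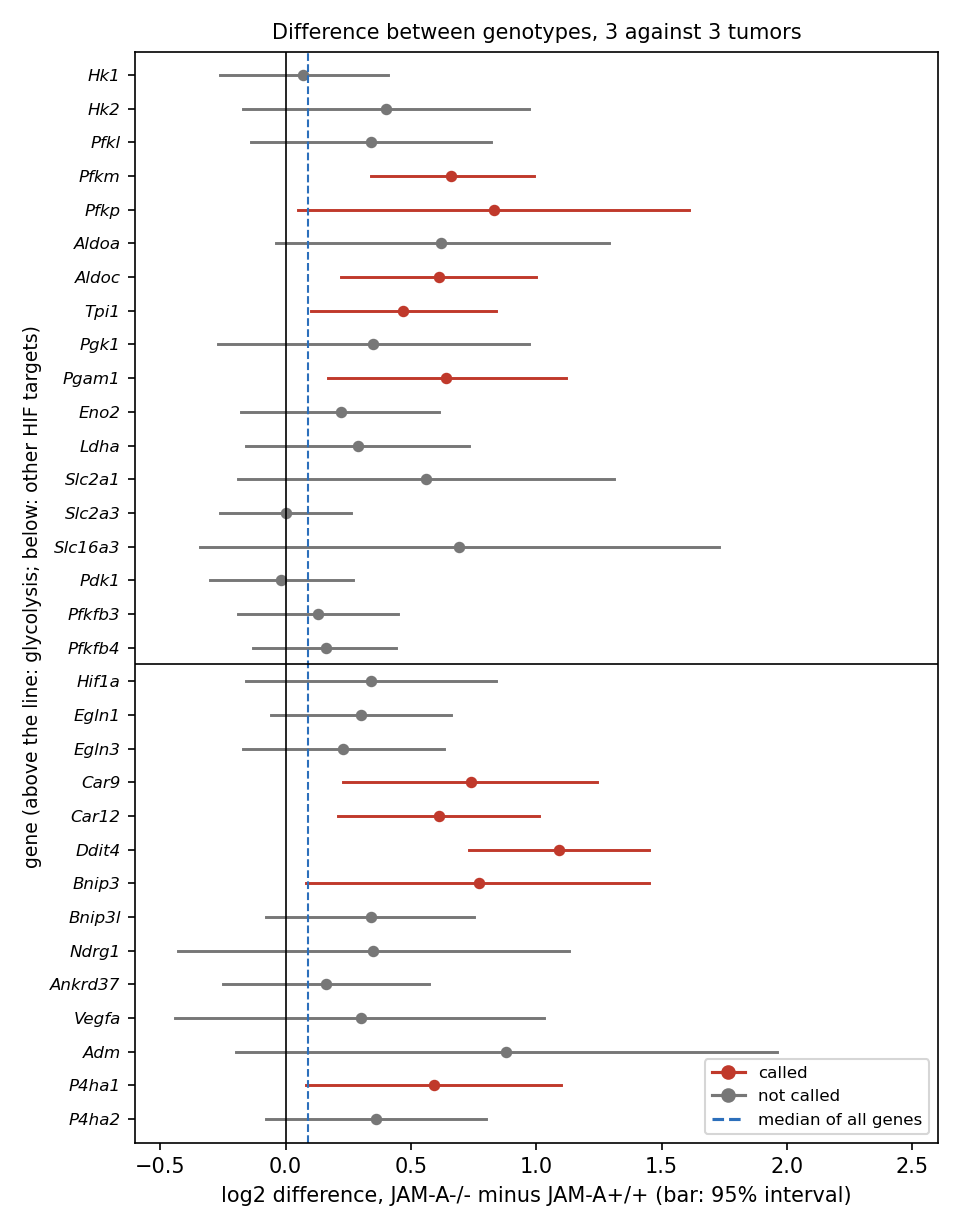
Log2 difference between JAM-A-/- and JAM-A+/+ tumors (horizontal axis) for each of the 32 measured members (vertical axis). Points are the differences of means of 3 tumors each, bars are 95% intervals from limma, red marks the 10 called members and the dashed line is the median of all genes, 0.09. All but Slc2a3 and Pdk1 lie to the right of 0.

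Glucose is first phosphorylated by a hexokinase. Hk2, the hexokinase linked to tumors and muscle, had values of 8.17, 8.97 and 8.31 in JAM-A-/- tumors and of 7.73, 8.19 and 8.33 in JAM-A+/+ tumors (difference 0.40, unadjusted p = 0.141 from limma). The groups overlapped, with tumor 5346 highest. Hk1, the hexokinase of most tissues, differed by 0.07 on the probe set that the rule takes, but that probe set may not read Hk1. It is annotated to Hk1 by 1 accession, and its profile over the tumors differed by at most 0.10 from those of 16 probe sets shared between Hk1 and the ribosomal protein gene Rpl17. The other probe set with the single symbol Hk1 lists its RefSeq transcripts and had values of 10.03, 11.1 and 11.02 in JAM-A-/- tumors and of 9.79, 10.22 and 10.37 in JAM-A+/+ tumors, a difference of 0.59 (unadjusted p = 0.0836 from limma).

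Phosphofructokinase commits glucose to glycolysis and exists as muscle, liver and platelet isoenzymes. Pfkm, the muscle form, had values of 9.71, 9.96 and 10.07 in JAM-A-/- tumors and of 9.17, 9.18 and 9.4 in JAM-A+/+ tumors. The groups did not overlap, and the difference was 0.66 (standard error 0.14, 1.58-fold, adjusted p = 0.244 from limma). Pfkp, the platelet form, was 9.25, 10.67 and 10.06 in JAM-A-/- tumors and 8.83, 9.34 and 9.32 in JAM-A+/+ tumors. Its difference of 0.83 (standard error 0.34) was called, but tumor 5333 lay within the JAM-A+/+ range. Only without tumor 5333, where the difference was 1.20, did the call hold when 1 tumor was left out; it was 0.49 without tumor 5346, 0.80 without 5347, 0.66 without 5369, 0.92 without 5370 and 0.91 without 5393. It also ended with quantile normalization of all probe sets (0.65) and with each probe set's own spread. Pfkl, the liver form, was 10.98, 11.8 and 11.54 in JAM-A-/- tumors and 11.15, 10.97 and 11.18 in JAM-A+/+ tumors, a difference of 0.34 that was not called (95% interval -0.14 to 0.82).

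Aldolase splits fructose bisphosphate. Aldoc, the brain form, had values of 12.21, 12.81 and 12.63 in JAM-A-/- tumors and of 11.97, 11.85 and 12.0 in JAM-A+/+ tumors, without overlap (difference 0.61, standard error 0.17, 1.53-fold). Aldoa, the muscle form, differed by nearly as much, 0.62, with values of 12.25, 13.3 and 13.37 in JAM-A-/- tumors and of 12.21, 12.35 and 12.49 in JAM-A+/+ tumors. Tumor 5333 lay inside the JAM-A+/+ range, the standard error was 0.29 and Aldoa was not called (unadjusted p = 0.0632 from limma). Without tumor 5333 it was, at 0.98.

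Tpi1, the triose phosphate isomerase that follows aldolase, was 11.57, 12.15 and 11.95 in JAM-A-/- tumors and 11.39, 11.4 and 11.47 in JAM-A+/+ tumors. All JAM-A-/- tumors were higher and the difference of 0.47 (standard error 0.16) was called, but it was not called without tumor 5346 (0.34), 5347 (0.44), 5369 (0.46) or 5370 (0.46). Nor was Tpi1 called with quantile normalization of all probe sets (0.28) or of the listed ones (0.29), with each probe set's own spread or at a fold of 1.5. Pgam1, the phosphoglycerate mutase, was 10.08, 10.86 and 10.38 in JAM-A-/- tumors and 9.63, 9.84 and 9.92 in JAM-A+/+ tumors, again without overlap (0.64, standard error 0.20, 1.56-fold). Its 3 probe sets gave differences of 0.61 to 0.64. Pgk1, the phosphoglycerate kinase and a classic HIF-1 target, was 12.0 in tumor 5346 but 10.86 and 11.17 in JAM-A-/- tumors 5333 and 5347, beside 11.01, 10.99 and 10.97 in JAM-A+/+ tumors. Its difference of 0.35 was not called and was 0.02 without tumor 5346. Pgk1 and Pgam1 are each read by 3 probe sets with nearly the same values, so near-identical gene copies may share their signal. Ldha, which reduces pyruvate to lactate, differed by 0.29 (95% interval -0.16 to 0.73), and Eno2, the neuronal enolase, by 0.22 (-0.18 to 0.61), with neither called.

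Of the transporters none was called. Slc2a1, the glucose transporter GLUT1, had values of 10.28, 11.71 and 11.19 in JAM-A-/- tumors and of 10.37, 10.49 and 10.64 in JAM-A+/+ tumors (difference 0.56, unadjusted p = 0.124 from limma). Tumor 5333 was the lowest of the 6 and tumor 5346 the highest. Without tumor 5333 Slc2a1 was called, at 0.95. Slc16a3, the lactate exporter MCT4, was 8.09 in tumor 5346 but 6.65 and 6.09 in JAM-A-/- tumors 5333 and 5347, and 6.41, 6.14 and 6.2 in JAM-A+/+ tumors, so that its difference of 0.69 was 0.12 without tumor 5346 and 1.12, and called, without tumor 5347. Slc2a3, the glucose transporter GLUT3, lay between 5.51 and 5.68 in all 6 tumors, with a 95% interval of -0.26 to 0.26 around a difference of 0.00.

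The 3 regulatory kinases had a median difference of 0.13, and none was called. Pfkfb4 was 6.28, 6.32 and 6.4 in JAM-A-/- tumors and 6.02, 6.33 and 6.18 in JAM-A+/+ tumors (difference 0.16). Pfkfb3 was 7.95, 7.96 and 7.74 in JAM-A-/- tumors and 7.58, 7.72 and 7.95 in JAM-A+/+ tumors (difference 0.13). Both make a fructose bisphosphate that activates phosphofructokinase and is not the one that aldolase splits. For both genes the groups overlapped. Pdk1, which holds pyruvate back from the mitochondrion and is a HIF-1 target, lay between 8.35 and 8.65 in the 6 tumors and differed by -0.02 (95% interval -0.30 to 0.27).

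Hif1a itself was 9.56, 10.38 and 10.03 in JAM-A-/- tumors and 9.42, 9.79 and 9.74 in JAM-A+/+ tumors (difference 0.34, unadjusted p = 0.157 from limma). Egln1, the main prolyl hydroxylase, was 8.25, 8.78 and 8.51 in JAM-A-/- tumors and 8.12, 8.27 and 8.26 in JAM-A+/+ tumors (difference 0.30). Egln3, a hydroxylase that is itself induced by HIF-1, differed by 0.23. None of these 3 was called, and all were highest in tumor 5346. The mRNA of Hif1a does not report its protein, which is set by hydroxylation.

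Car9 and Car12, the carbonic anhydrases among the members, act at the cell surface on the acid that glycolysis makes, and both were called higher. Car9 was 8.48, 8.49 and 8.02 in JAM-A-/- tumors and 8.02, 7.31 and 7.45 in JAM-A+/+ tumors, a difference of 0.74 (standard error 0.22, 1.67-fold). The groups met at 8.02, the value of tumors 5347 and 5369. Car12 was 11.48, 11.56 and 11.77 in JAM-A-/- tumors and 11.25, 10.67 and 11.07 in JAM-A+/+ tumors, without overlap (0.61, standard error 0.17, 1.52-fold). In contrast to most members, both were as high in tumor 5333 as in the other JAM-A-/- tumors or nearly so. The call of Car12 ended with both quantile normalizations and that of Car9 with neither, but Car9, like Pgam1, was not called when each probe set's own spread was used.

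The member with the largest difference was Ddit4, which encodes REDD1, an inhibitor of mTORC1 that is induced by hypoxia and by other stresses, glucocorticoid and p53 among them. Its values were 9.8, 10.08 and 9.99 in JAM-A-/- tumors and 8.59, 8.98 and 9.03 in JAM-A+/+ tumors. The lowest JAM-A-/- tumor stood clear of the highest JAM-A+/+ tumor, and the difference was 1.09 (standard error 0.16, 2.13-fold, unadjusted p = 0.000135 and adjusted p = 0.198 from limma). Over the alternatives it lay between 0.91 and 1.17 with adjusted p-values of 0.0524 to 0.554. Bnip3, a mitochondrial receptor for mitophagy, was 8.72, 9.75 and 8.75 in JAM-A-/- tumors and 8.66, 8.13 and 8.13 in JAM-A+/+ tumors (0.77, standard error 0.29). Its call ended without tumor 5346 (0.43), 5370 (0.68) or 5393 (0.68). The call also ended with both quantile normalizations (0.64 over all probe sets and 0.62 over the listed ones) and with each probe set's own spread. The other probe set of Bnip3 was not called (0.52). Bnip3l, its relative, differed by 0.34 and was not called. Ndrg1, a stress-responsive gene and hypoxia marker, was 10.26, 11.14 and 9.74 in JAM-A-/- tumors and 9.73, 10.31 and 10.04 in JAM-A+/+ tumors. Its difference of 0.35 was -0.03 without tumor 5346. Ankrd37 differed by 0.16 (95% interval -0.25 to 0.57).

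Among the targets that act on vessels and matrix, P4ha1 alone was called. It encodes a catalytic subunit of collagen prolyl hydroxylase and was 8.16, 9.04 and 8.46 in JAM-A-/- tumors and 8.13, 7.91 and 7.85 in JAM-A+/+ tumors (difference 0.59, standard error 0.22). The call ended without tumor 5346 (0.35), 5370 (0.56) or 5393 (0.53), with both quantile normalizations (0.48 and 0.46) and with each probe set's own spread. P4ha2, another subunit of this kind, was 7.14, 7.14 and 6.54 in JAM-A-/- tumors and 6.45, 6.76 and 6.54 in JAM-A+/+ tumors (difference 0.36, not called). Adm, the vasodilator adrenomedullin, was 7.79, 9.13 and 7.05 in JAM-A-/- tumors and 7.39, 7.09 and 6.86 in JAM-A+/+ tumors. Its difference of 0.88 was second only to Ddit4 among the members but had a standard error of 0.47 and was not called. Left out one at a time, tumor 5346 brought it to 0.31 and tumor 5347 to 1.35, where it was called. Vegfa, the vascular endothelial growth factor, was 8.31, 9.5 and 8.39 in JAM-A-/- tumors and 8.74, 8.29 and 8.28 in JAM-A+/+ tumors. Here only tumor 5346 stood above the JAM-A+/+ range, and without it the difference of 0.30 was -0.09.

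**Figure D2:**
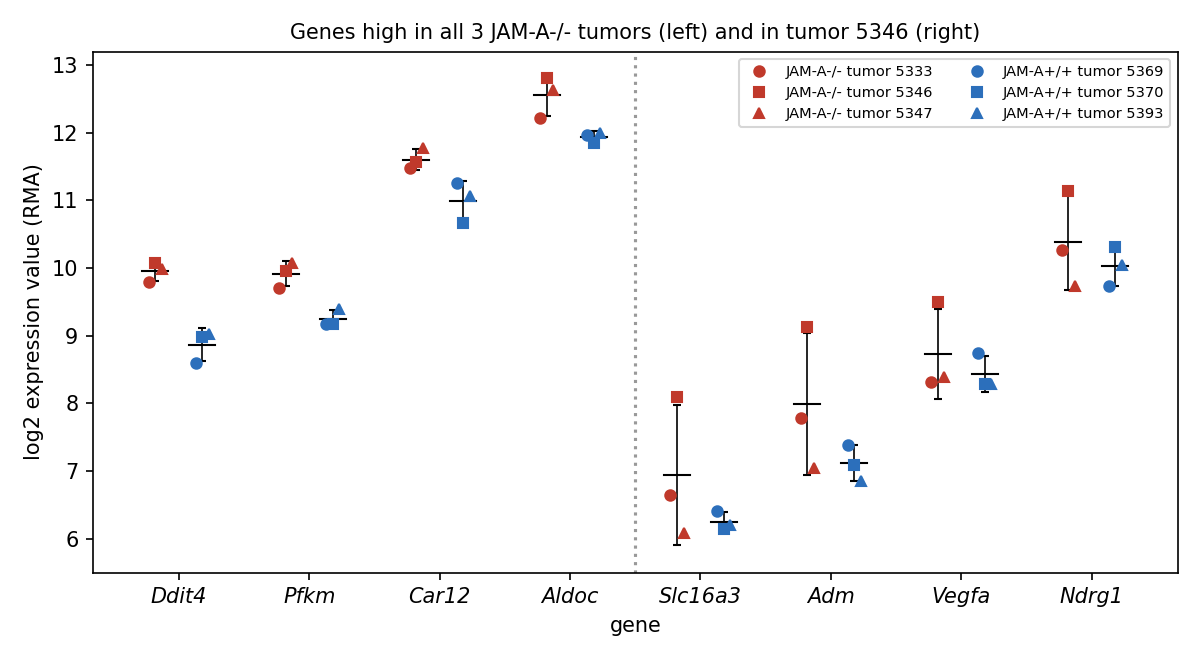
Log2 expression (vertical axis) of 8 members (horizontal axis), with JAM-A-/- tumors in red, JAM-A+/+ tumors in blue, each symbol 1 tumor, horizontal ticks group means and bars 1 SD (n = 3). Ddit4, Pfkm, Car12 and Aldoc are higher in all 3 JAM-A-/- tumors, whereas Slc16a3, Adm, Vegfa and Ndrg1 stand out in tumor 5346, at 8.09, 9.13, 9.5 and 11.14.

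Followed tumor by tumor, the members did not move as a block in the JAM-A-/- tumors. Deviations were taken from the 6-tumor mean of each gene. For the glycolysis genes they averaged -0.13 in tumor 5333, 0.52 in 5346 and 0.19 in 5347, against -0.26, -0.20 and -0.13 in JAM-A+/+ tumors 5369, 5370 and 5393. For the other HIF-1 targets they averaged 0.02, 0.64 and 0.08 in the JAM-A-/- tumors, against -0.18, -0.27 and -0.31 in the JAM-A+/+ tumors. Tumor 5346 was thus highest in both groups of genes, and for the glycolysis genes tumor 5333 had the same mean as JAM-A+/+ tumor 5393. Over tumors, the glycolysis genes averaged 0.20 ± 0.33 in JAM-A-/- and -0.20 ± 0.06 in JAM-A+/+ tumors, and the other targets 0.25 ± 0.34 in JAM-A-/- and -0.25 ± 0.06 in JAM-A+/+ tumors (SD, n = 3 each). The JAM-A-/- tumors were thus the more scattered in both groups of genes. The order of tumors other than 5346 depended on the scaling. With quantile normalization of all probe sets, the glycolysis genes averaged -0.03, 0.42 and 0.01 in JAM-A-/- tumors 5333, 5346 and 5347, against -0.11, -0.18 and -0.12 in JAM-A+/+ tumors 5369, 5370 and 5393. The other targets then averaged 0.10, 0.55 and -0.08 in the JAM-A-/- tumors, against -0.02, -0.26 and -0.30 in the JAM-A+/+ tumors, so that tumor 5347 lay below JAM-A+/+ tumor 5369.

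Of the 32 members 23 had their highest value in tumor 5346 (71.9%), while 16.2% of all genes did, and 7 had it in tumor 5347 (21.9%), where 42.2% of all genes did. None was highest in tumor 5333 alone or in a JAM-A+/+ tumor, and 2 members, Slc2a3 and P4ha2, had a tie. Tumor 5346 exceeded both other JAM-A-/- tumors by at least 0.5 for 10 members (31.2%), against 1.5% of all genes, a limit set after the values were seen. Measured as tumor 5346 minus the mean of 5333 and 5347, the excess was 1.72 for Slc16a3, 1.71 for Adm, 1.15 for Vegfa, 1.14 for Ndrg1, 1.02 for Bnip3 and 1.01 for Pfkp. Of these, Bnip3 and Pfkp belong to the called members. For the other called members the excess was 0.73 for P4ha1, 0.63 for Pgam1, 0.39 for Aldoc and 0.39 for Tpi1. It was lower for Car9 (0.24), Ddit4 (0.19), Pfkm (0.07) and Car12 (-0.06), which were called too.

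**Figure D3:**
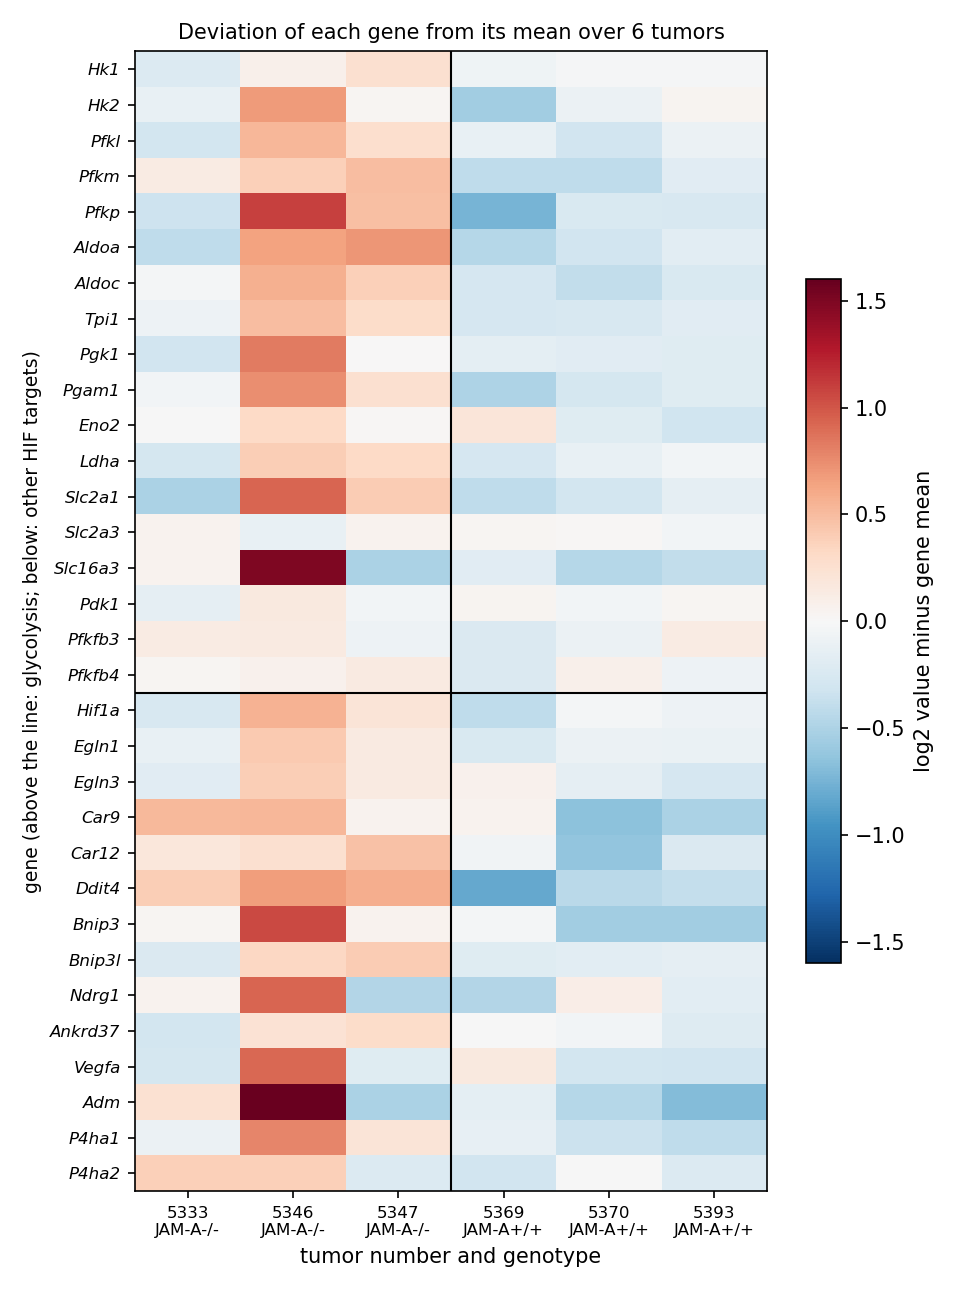
Deviation of each of the 32 members (rows) from its own mean over the 6 tumors, on the log2 scale (colour), in 3 JAM-A-/- and 3 JAM-A+/+ tumors (columns), with glycolysis genes above the horizontal line and other HIF-1 targets below it. Tumor 5346 is the highest column for 23 members, while tumor 5333 is near the JAM-A+/+ tumors for most glycolysis genes and high for Car9 and Ddit4.

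The subgroups differed in which tumors were high. The 12 glycolytic enzymes stood at 0.56 in tumor 5346 and 0.29 in tumor 5347 but at -0.17 in tumor 5333. The vascular and matrix targets stood at 0.91 in tumor 5346, and at 0.06 and -0.18 in tumors 5333 and 5347. The carbonic anhydrases were even, at 0.35, 0.39 and 0.26 in tumors 5333, 5346 and 5347, against 0.00, -0.64 and -0.37 in tumors 5369, 5370 and 5393. Tumor 5333 lay above all JAM-A+/+ tumors for 6 of 18 glycolysis genes and 7 of 14 other targets, against 28.0% of all genes. In tumor 5347 this held for 13 and 9, against 56.7% of all genes, and in tumor 5346 for 16 and 14, against 41.4%.

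Among markers of other cell types, those of skeletal muscle were highest in tumor 5346 too. The 12 markers of skeletal muscle, a tissue rich in glycolytic enzymes, had mean deviations of -0.09, 0.72 and 0.40 in JAM-A-/- tumors 5333, 5346 and 5347. In JAM-A+/+ tumors 5369, 5370 and 5393 they were -0.38, 0.29 and -0.93. Of these markers 3 of 12 were called higher (25.0%), against 4.73% of all genes. Tumor 5346 was highest for 11 of 12, against 16.2% of all genes. JAM-A+/+ tumor 5370 stood at 0.29 in muscle markers and -0.20 in glycolysis genes, and JAM-A-/- tumor 5333 at -0.09 and -0.13. Endothelial markers averaged -0.08, 0.22 and 0.36 in JAM-A-/- tumors 5333, 5346 and 5347, against -0.46, 0.05 and -0.08 in JAM-A+/+ tumors 5369, 5370 and 5393. In all, 10 of 10 lay above 0 (median difference 0.33), against 71.0% of all genes, and 1 was called higher. Neutrophil markers averaged 0.05, 0.16 and -0.17 in JAM-A-/- tumors, against -0.11, 0.11 and -0.04 in JAM-A+/+ tumors, with none of 8 called. The mean in tumor 5346 rested largely on S100a8, at 7.68 there and at most 6.67 elsewhere, while S100a9 was lowest there, at 4.92. By the median over these markers tumor 5346 stood at 0.07, below tumor 5333 at 0.08 and JAM-A+/+ tumor 5370 at 0.16. Macrophage markers averaged -0.26, 0.12 and 0.29 in JAM-A-/- tumors, against -0.44, 0.28 and 0.01 in JAM-A+/+ tumors, and red cell markers -0.08, -0.13 and 0.09, against -0.08, -0.06 and 0.27, with no marker of either list called. Epithelial markers stood at -0.11, 0.16 and 0.19 in JAM-A-/- tumors 5333, 5346 and 5347, against -0.38, 0.07 and 0.06 in JAM-A+/+ tumors 5369, 5370 and 5393, with 1 of 9 called higher, Esr1. Fibroblast markers stood at -0.03, 0.11 and 0.46 in JAM-A-/- tumors, against -0.66, 0.16 and -0.04 in JAM-A+/+ tumors. Their median difference was 0.36, the same as that of all members. Of them 2 of 9 were called higher (22.2%), Col1a2 and Pdgfra, against 4.73% of all genes. Adipocyte markers ranged most and had no call, at -0.62, 0.28 and 0.51 in these JAM-A-/- tumors, against -1.32, 0.45 and 0.69 in the JAM-A+/+ tumors. Proliferation genes averaged 0.28, 0.15 and 0.05 in JAM-A-/- tumors, against -0.56, 0.01 and 0.07 in JAM-A+/+ tumors. All 11 lay above 0 (median difference 0.30), against 71.0% of all genes. Of them 5 were without overlap (45.5%), against 12.4% of all genes, and 2 were called higher (18.2%), Aurka and Birc5, against 4.73%. Unlike the members, the proliferation genes were highest in tumor 5333. The part of these lists in the members' differences was not tested.

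**Figure D4:**
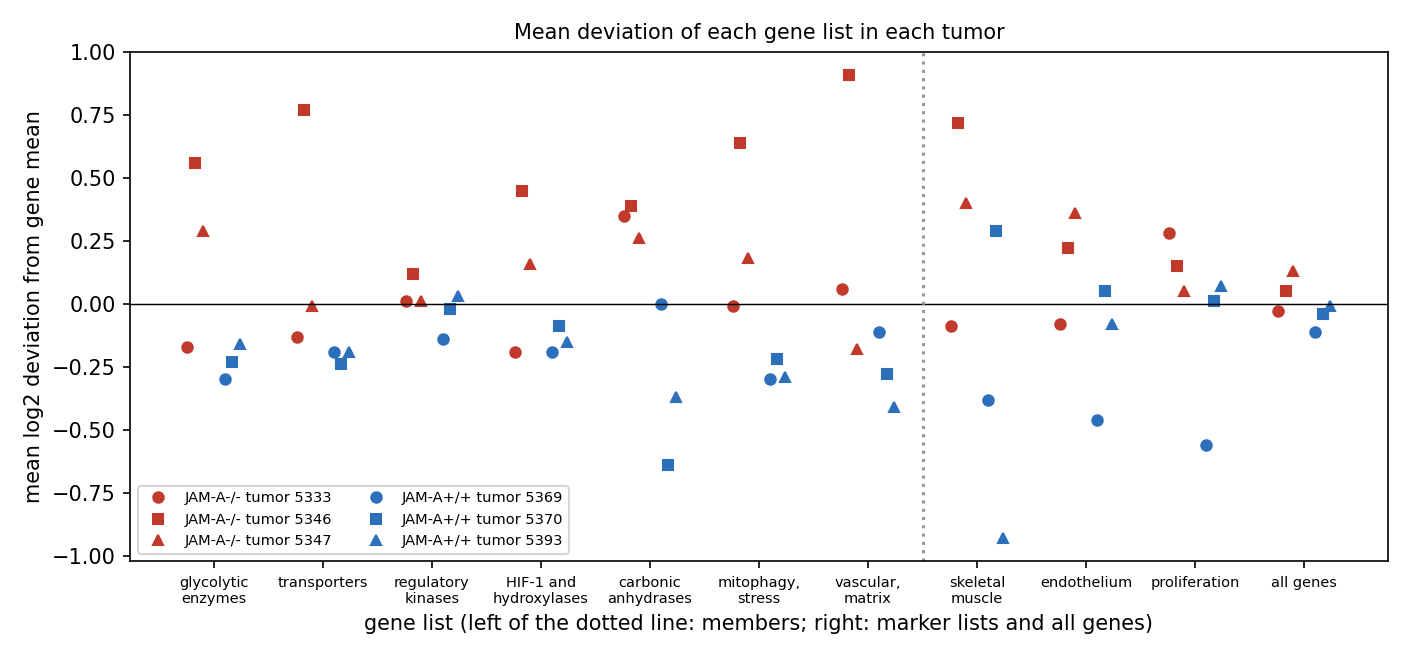
Mean log2 deviation (vertical axis) of 7 subgroups of members, 3 marker lists and all genes (horizontal axis) in each of 3 JAM-A-/- tumors (red) and 3 JAM-A+/+ tumors (blue). Tumor 5346 reaches 0.91 for vascular and matrix targets, 0.77 for transporters and 0.72 for skeletal muscle markers, and the carbonic anhydrases are even over the JAM-A-/- tumors.

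Genes of the same pathways that are not among the members were listed as well. The 39 measured genes of glycolysis and pyruvate metabolism had a median difference of 0.22, against 0.09 over all genes. Of them 7 (17.9%) were called higher, against 4.73% of all genes, and none lower, against 0.592%. By smallest p these were G6pc3, a glucose-6-phosphatase of most tissues, at 0.74, Pck2, the mitochondrial PEP carboxykinase, at 0.49, Ldhb, the heart form of lactate dehydrogenase, at 0.58, Bpgm at 0.54, Eno3, the muscle enolase, at 0.61, and Galm at 0.42. The seventh, Pgam2, the muscle form of the mutase, was at 0.60. Eno3 and Pgam2 are expressed chiefly in skeletal muscle. In both, JAM-A+/+ tumor 5370 overlapped the JAM-A-/- tumors, at 7.42 and 6.37. The part of muscle content in their differences was not tested. Gapdh was paired only with probe sets of several symbols and is not reported.

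The 44 measured genes of the HIF pathway had a median difference of 0.23, against 0.09 over all genes. Of them 8 (18.2%) were called higher, against 4.73% of all genes, and 1 lower, against 0.592%. They include Plod1, a lysyl hydroxylase of collagen, at 0.87, Tfrc, the transferrin receptor, at 0.49, Bhlhe40, a transcriptional repressor induced by hypoxia, at 0.69, P4hb, the shared beta subunit of collagen prolyl hydroxylase, at 0.47, and Flt1, a receptor of Vegfa, at 0.41. Edn1, the vasoconstrictor endothelin, was called lower, at -0.41, and Mif, Pgf and Lox were the other 3 called higher. Plod1 was 9.52, 10.53 and 10.19 in JAM-A-/- tumors and 9.06, 9.27 and 9.29 in JAM-A+/+ tumors, again with tumor 5346 highest and no overlap. Without tumor 5346, 2 genes of glycolysis and pyruvate metabolism and 3 of the HIF pathway were called higher, without tumor 5369 1 and 3, without tumor 5347 3 and 5, and without tumor 5333 16 of the HIF pathway were. Of all genes 4.05% were called higher without tumor 5346, 2.52% without 5369, 3.17% without 5347 and 10.1% without 5333.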

How the data were processed

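RNA of 6 mammary tumors, 3 JAM-A-/- and 3 JAM-A+/+, was hybridized to Affymetrix arrays (Mouse Gene 1.0 ST), 1 per tumor. The deposited log2 values were made by the authors with RMA in Affymetrix Expression Console 1.1, per the submitters' processing notes, which corrects background and normalizes probes between arrays, so that total RNA is not reflected. Its settings were not given in the sources used here. Arrays give no counts, and 3 per group limit the precision.

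The platform annotation pairs 21789 of 35557 probe sets with 1 symbol, 1621 with several and does not list 12147. All probe sets were fitted with limma 3.58.1 in R 4.3.3 (lmFit, eBayes, Benjamini-Hochberg over all), without covariates. Calls need a fold of 1.3 and an unadjusted p under 0.05, which are thresholds seen in the study's signature table. The fit was checked on simulated data. Members, lists, tests and most alternatives were chosen with earlier results of these data known, so no list was tested as a set. Values of all tumors are given for called members and for the 2 of smallest p in subgroups with fewer than 2 calls, paralogs are set side by side, and up to 6 called genes of each further list are named by smallest p. Values of Adm, Vegfa, Ndrg1 and Pgk1, and the other called genes of the further lists, were added after they were seen. Gene names follow the annotation and a RefSeq table of GRCm38.p6, which also gave promoters, searched up to the start site only. Alternatives were 3 normalizations, 3 tests, a fold of 1.5, a filter on dim probe sets, averaged probe sets and leaving out each tumor.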

Additional observations from a re-analysis of the deposited data

How the results depend on the processing

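No member passed adjustment over all probe sets under any alternative, and none was called lower. The number of glycolysis genes called higher was 5, or 3 with quantile normalization of all probe sets, 13 with array weights, 2 with each probe set's own spread and 3 to 10 with 1 tumor left out. For the other HIF-1 targets it was 5, or 2, 12, 2 and 3 to 8 under these settings and 2 with quantile normalization of the listed probe sets. Array weights gave tumor 5346 a weight of 2.37, against 0.488 to 1.82 for the others, and a median of 0.67 for the other HIF-1 targets. Calls among all genes were 944 higher and 118 lower, but 570 and 174 with quantile normalization of all probe sets and 359 and 303 with that of the listed ones. They were 1309 and 204 with array weights, 491 and 64 with own spread and 244 and 25 at a fold of 1.5. With 1 tumor left out, 502 (without 5369) to 2018 (without 5333) of all genes were called higher. In the lists of further pathway genes, an alternative chosen after seeing the data, the HIF pathway had 8 called higher, or 3 with quantile normalization of all and 4 of listed probe sets, 15 with array weights, 5 with own spread, 3 at a fold of 1.5 and 3 to 16 with 1 tumor left out. It had 1 called lower, or 2 with listed probe sets, 0 with centring or a fold of 1.5, and 0 to 1 with 1 tumor left out. The glycolysis and pyruvate genes had 7 called higher, or 4 with listed probe sets, 1 with own spread, 3 at a fold of 1.5 and 1 to 10 with 1 tumor left out, when 0 to 1 were lower. Differences near 0 changed sign for Hk1 (-0.14 and -0.13 with the quantile normalizations, -0.04 to 0.20 with 1 tumor left out, lowest without 5347) and Pdk1 (0.04 with centring, 0.09 with array weights, -0.10 to 0.05 with 1 tumor left out, highest without 5333). With 1 tumor left out Ndrg1 ranged from -0.03 to 0.67 and Vegfa from -0.09 to 0.51, both lowest without 5346. The cause of these changes was not tested. The mean deviation per tumor moved by more than the spread within its genotype in 10 of 120 comparisons. In JAM-A+/+ tumor 5369 it was -0.11 and -0.08 for the glycolysis genes and -0.02 and 0.01 for the other targets with quantile normalization of all and of listed probe sets. With 1 tumor left out it ranged from -0.30 to -0.15 in tumor 5369, -0.25 to -0.09 in 5370 and -0.18 to -0.03 in 5393 for the glycolysis genes, and from -0.24 to -0.05, -0.33 to -0.14 and -0.36 to -0.18 for the other targets, each highest without tumor 5346, which lowers the gene means. The study used JAM-A+/+ littermates as controls, but the litters of single tumors were not given in the sources used here. No paired analysis was thus possible.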
